A study of Mus musculus with 16 samples.

Results

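The transcripts described here encode 9 membrane transporters linked to the handling of paclitaxel, a microtubule-stabilizing drug. They comprise 6 exporters of the ATP-binding cassette (ABC) family (Abcb1a, Abcb1b, Abcc1, Abcc2, Abcc3 and Abcg2) and 3 organic anion uptake carriers (Slco1a1, Slco1a4 and Slco1b2). The members were chosen by name, and they are 9 genes beside 17426 that were measured at both tumor sites. Messenger RNA was sequenced from 16 libraries of digested tumor tissue grown from 4T1 cells, a mouse triple-negative breast carcinoma line of BALB/c origin, in female wild-type mice of 6 weeks. Tumors called subcutaneous by the labels (SC) came from 400000 cells injected in the fourth mammary fat pad, and liver tumors from 200000 cells placed under the capsule of the left lobe, and growth took 15 days. Untreated libraries numbered 3 from SC tumors (pre_SC) and 5 from liver tumors (pre_Liver). Treated libraries (post_SC, 3, and post_Liver, 5) came from mice given paclitaxel by intraperitoneal injection at 10 mg/kg, 5 times a week for 2 weeks. Controls of the study received PBS, but the labels do not tell whether the untreated libraries are those controls or tumors taken before dosing, nor whether replicates are separate mice, so p-values measure the spread between these samples. Implanted cells of 1 line stand for metastasis in this model, and the digests also contain cells of the host.

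Exporters of the ABC family use ATP to move drugs and conjugates out of cells. P-glycoprotein, which mice encode in the gene pair Abcb1a and Abcb1b, is the best known exporter of paclitaxel; in mice Abcb1a serves the gut and the blood-brain barrier, and Abcb1b is prominent in the adrenal gland and the pregnant uterus. In the liver, carriers of the Slco family take drugs and bile acids up from the blood across the sinusoidal membrane of hepatocytes, and Abcc2 exports into bile. Levels are given as TPM, a transcript abundance that is scaled by gene length and within each library, so levels of different genes can be set side by side.

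Liver tumor libraries held a large and uneven amount of hepatocyte RNA. All 15 hepatocyte markers were measured, none was at 0 in every library of a group, and their summed level was 42020 to 167800 TPM in pre_Liver and 4587 to 112000 TPM in post_Liver, against 239.1 to 605.3 TPM in pre_SC and 251.6 to 579.9 TPM in post_SC. Post_Liver 2 and 3 had the lowest hepatocyte score of the 10 liver libraries (7.71 and 7.45, the mean log2(TPM + 1) of the markers), and they were also the most similar pair of liver libraries, with 0.84% of 13734 genes differing by more than 2-fold. The 8 carcinoma epithelium markers summed to 694.4 to 3084 TPM in pre_Liver and 4737 to 5230 TPM in pre_SC, and all 8 were called lower in liver. Between untreated sites 4 of 5 sinusoidal endothelial, 3 of 3 measured Kupffer cell and 3 of 7 endothelial markers were called higher in liver, with summed levels of 176.1 to 327.1, 89.96 to 217.1 and 158.4 to 164.6 TPM against 191.5 to 249.4, 1.74 to 3.05 and 103.1 to 157.9 TPM in pre_SC. No marker of the carcinoma, endothelial or neutrophil lists was at 0 throughout a group. Fewer cells of a type and less RNA per cell cannot be told apart in such bulk libraries, and the part of these markers in the results below was not tested except where a covariate is named.

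Promoter windows are shown for the clustered uptake carriers, which stood near 0 in SC tumors where measured, and for the P-glycoprotein pair. RefSeq (GRCm38.p6) holds such windows for 7 of the 9 members and has no entry for Abcc1 and Abcc3. The 250 bases upstream of the RefSeq start are printed 5′ to 3′ on the gene's strand, with motif matches on either strand in capitals. The letters searched were GTTAA, part of the hepatocyte nuclear factor 1 motif and chosen after the sequences were seen, and the nuclear receptor half-site AGGTCA. The general promoter elements searched were the CAAT box (CCAAT), the GC box (GGGCGG) and the TATA box (TATAAA). No match overlaps another in the windows printed.
Slco1b2, chr6:141629268-141629517, plus strand: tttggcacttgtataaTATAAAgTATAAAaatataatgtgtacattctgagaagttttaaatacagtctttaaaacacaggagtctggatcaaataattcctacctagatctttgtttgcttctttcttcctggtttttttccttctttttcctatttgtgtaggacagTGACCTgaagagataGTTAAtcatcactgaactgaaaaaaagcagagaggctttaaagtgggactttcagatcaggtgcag
Slco1a4, chr6:141856221-141856470, minus strand: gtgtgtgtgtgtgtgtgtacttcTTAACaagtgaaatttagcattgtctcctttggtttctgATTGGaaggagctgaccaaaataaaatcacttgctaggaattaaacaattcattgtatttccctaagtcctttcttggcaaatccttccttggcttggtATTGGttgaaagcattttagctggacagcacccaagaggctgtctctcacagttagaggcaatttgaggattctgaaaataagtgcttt
Slco1a1, chr6:141946963-141947212, minus strand: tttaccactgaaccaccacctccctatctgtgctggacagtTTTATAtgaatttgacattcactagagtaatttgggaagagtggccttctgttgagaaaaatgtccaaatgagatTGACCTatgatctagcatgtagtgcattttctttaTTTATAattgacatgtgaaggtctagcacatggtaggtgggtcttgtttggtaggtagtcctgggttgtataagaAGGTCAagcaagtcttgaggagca
Abcb1a, chr5:8566841-8567090, plus strand: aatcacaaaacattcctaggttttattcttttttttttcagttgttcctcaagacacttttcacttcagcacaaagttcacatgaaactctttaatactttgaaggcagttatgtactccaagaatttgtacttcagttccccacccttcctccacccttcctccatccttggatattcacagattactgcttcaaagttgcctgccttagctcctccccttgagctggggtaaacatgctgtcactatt
Abcb1b, chr5:8797897-8798146, plus strand: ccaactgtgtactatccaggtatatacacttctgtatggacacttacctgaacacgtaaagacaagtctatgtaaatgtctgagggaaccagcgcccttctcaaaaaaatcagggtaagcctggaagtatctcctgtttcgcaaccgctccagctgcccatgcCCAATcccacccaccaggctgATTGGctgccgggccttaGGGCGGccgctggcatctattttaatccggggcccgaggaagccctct
GTTAA was found in 21.7% of 32851 windows of this length, and among the windows printed in Slco1b2 (66 bases before the start) and Slco1a4 (227 bases before it). AGGTCA was found in 14.0% of all windows, CCAAT in 33.8%, GGGCGG in 32.7% and TATAAA in 12.4%. Slco1b2 holds 1 AGGTCA match and 2 TATAAA matches. Slco1a1 holds 2 matches to each of these. Slco1a4 holds 2 CCAAT matches, and Abcb1b holds 2 CCAAT matches and 1 GGGCGG match. Abcb1a holds none of the 5 motifs. Of the windows not printed, that of Abcc2 holds matches to GTTAA, to the half-site and to the CAAT box. Of the 3 windows of Abcg2, a gene with nearly the same mean at both untreated sites, 1 holds GTTAA, 2 hold the half-site and 2 hold the GC box. A match is a description of the letters and not of binding. The Abcb1a window ends at chr5:8567090, far upstream of the GENCODE gene start at 8660077, so its lack of matches does not describe the bases before that start. An annotated antisense transcript overlaps the Abcb1b window and gene start.

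Genes of a family lie together in this group. On GRCm38 (GENCODE M21), Abcb1a (chr5:8660077-8748575) and Abcb1b (chr5:8798147-8866315) are neighbors on the plus strand. Slco1b2 (chr6:141629518-141686646, plus strand), Slco1a4 (chr6:141805440-141856199, minus strand) and Slco1a1 (chr6:141907282-141946962, minus strand) share a cluster. The others are Abcg2 (chr6:58584523-58695676, plus strand), Abcc3 (chr11:94343295-94392997, minus strand), Abcc1 (chr16:14361558-14475737, plus strand) and Abcc2 (chr19:43782192-43840740, plus strand). Of all 50-base stretches of Abcb1a exons, 15.5% also occur in Abcb1b, and 17.8% of those of Abcb1b occur in Abcb1a, so reads could be split between them and their single values are uncertain to that extent. Slco1a1 shares 2.07% with Slco1a4.

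The first comparison set untreated liver tumors beside untreated SC tumors. Of 7 members tested, 4 were called higher in liver (Slco1b2, Abcc2, Abcb1a and Abcc3) and 2 lower (Abcc1 and Abcb1b), at an adjusted p under 0.05 by limma with Benjamini-Hochberg adjustment over all genes. Of the 13633 genes tested, 14.8% were called higher and 33.4% lower. The members' median difference was 0.70 on the log2(TPM + 1) scale, and that of all genes −0.52. Median of ratios scaling moved the latter to −0.02 and the split of calls over all genes from 2011 higher and 4557 lower to 3109 and 2488, while 4 members were then called higher and 1 lower. Slco1a1 and Slco1a4 have no row in the table of SC libraries and were tested on the untreated table after its batch constant was removed, a choice made after seeing the data. In that fit 6 of 9 members were called higher, against 15.4% of all genes, and 2 lower. Slco1b2, Abcc2, Slco1a1 and Slco1a4 passed the filter on low values (mean TPM of at least 1) through the liver libraries alone. They thus had to differ, and these counts, these medians and the p-values of these genes are a description. Their log2 sizes against a group near 0 are set by the pseudocount.

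Among uptake carriers, Slco1b2 was the most abundant member in pre_Liver. It encodes the mouse Oatp1b carrier that brings taxanes and bile acids into hepatocytes. It read 151, 62.4, 353, 302 and 341 TPM in pre_Liver replicates 1 to 5, and 0.0205, 0.0582 and 0 TPM in pre_SC. Every liver library stood above every SC library, with a difference of 7.64 ± 0.54 (log2, SE, n = 5 and 3, limma adjusted p = 2.84e-05) that was 10.7 with a pseudocount of 0.1. The p-values of this and the next carriers are a description, since the liver libraries alone brought them past the filter. Slco1a1, the carrier Oatp1a1 of steroid conjugates and bile acids, read 19.4, 10.2, 41.4, 19.1 and 14.0 TPM in pre_Liver and was listed at 0 in all pre_SC libraries (limma adjusted p = 8.56e-05). Slco1a4, the carrier Oatp1a4 of liver and brain endothelium, read 24.8, 6.48, 40.9, 43.5 and 77.3 TPM and was also listed at 0 in pre_SC (limma adjusted p = 0.000796). Pre_Liver 2, with the lowest hepatocyte score of the untreated liver libraries (10.9), gave the lowest level of all 3 carriers in that group.

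**Figure D1:**
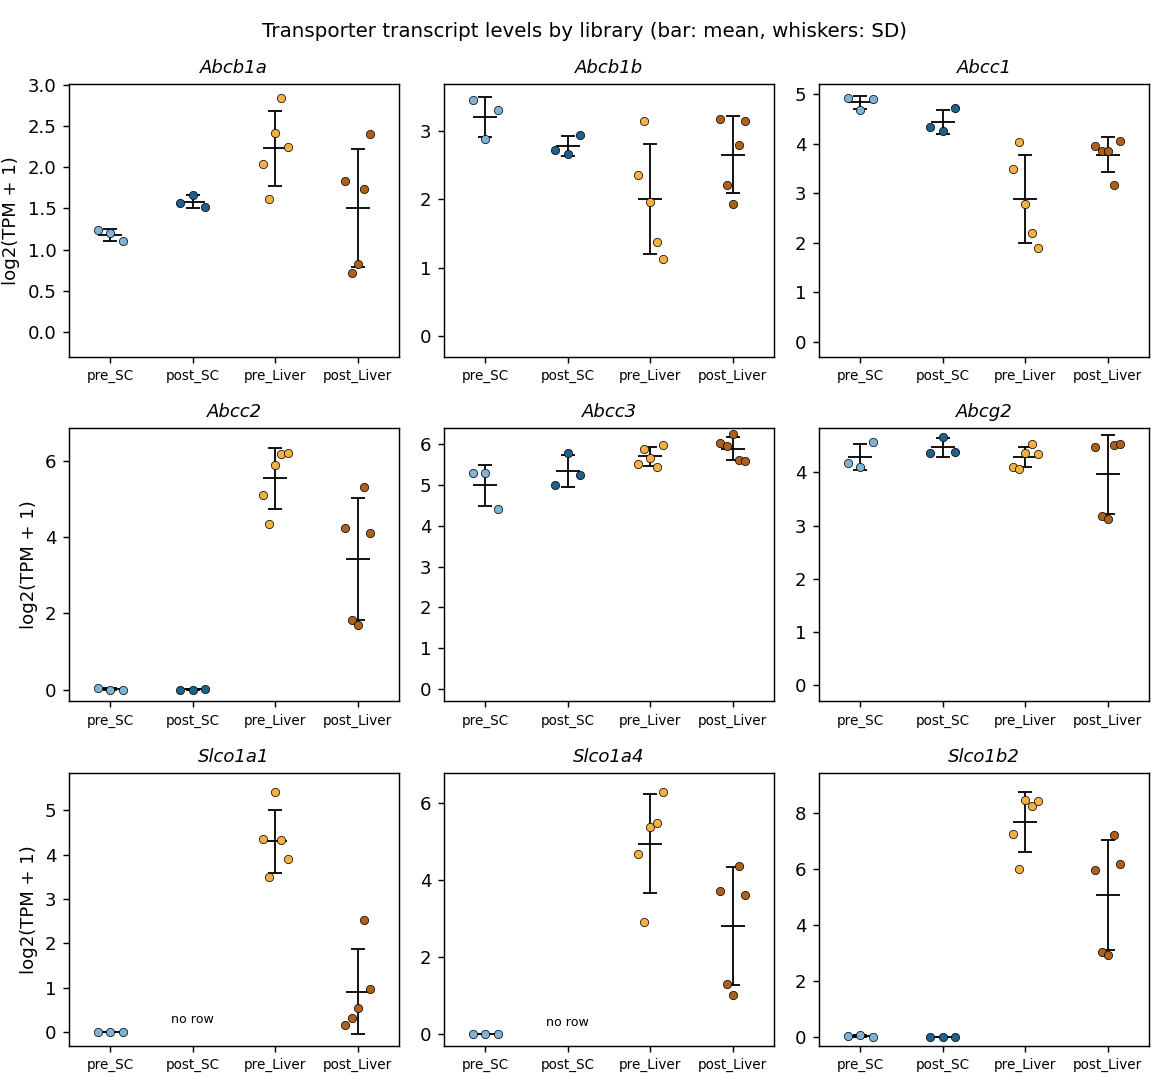
Level of each transporter in each library as log2(TPM + 1), by group, with bars for the group mean and whiskers for the SD; Slco1a1 and Slco1a4 have no row for post_SC. Abcc2 and the 3 carriers stand near 0 in SC tumors where measured and are spread widely in liver tumors, while Abcc3 and Abcg2 are well above 0 in all groups.

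Abcc2, the canalicular exporter Mrp2 that moves conjugates and taxanes into bile, followed the carriers. Its levels were 33.4, 19.4, 58.1, 70.7 and 73.2 TPM in pre_Liver and 0.0410, 0 and 0 TPM in pre_SC, with no overlap. The difference was 5.52 ± 0.42 (log2, SE, limma adjusted p = 4.12e-05), or 8.67 with a pseudocount of 0.1. Both are a description, since Abcc2 passed the filter through the liver libraries alone. Abcc3, the basolateral exporter Mrp3, was high at both sites, with 45.1, 58.2, 49.5, 42.8 and 62.4 TPM in pre_Liver and 38.1, 38.1 and 20.4 TPM in pre_SC. The groups did not overlap, and the means of 51.6 ± 8.4 (SD, n = 5) and 32.2 ± 10.2 (SD, n = 3) TPM differed by 0.70 ± 0.25 on the log2 scale (limma adjusted p = 0.0438). That call was lost without any 1 library other than pre_Liver 2, and the adjusted p ranged from 0.0162 to 0.160 over all alternatives; without pre_SC 3, the lowest SC library, the difference was 0.41. Under median of ratios scaling it was 1.23.

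Abcc1 and Abcb1b were lower in liver. Abcc1 encodes Mrp1, an exporter of glutathione conjugates found in most tissues. It read 29.3, 24.7 and 28.9 TPM in pre_SC and 10.2, 15.4, 5.91, 3.60 and 2.73 TPM in pre_Liver, where every library was below every SC library. The means differed 3.65-fold, by −1.95 ± 0.46 on the log2 scale (limma adjusted p = 0.0138), and the call was lost without pre_SC 1 or pre_SC 3 (0.0581 and 0.0555). Within pre_Liver, replicates 4 and 5 were the lowest for Abcc1, and they were also the libraries with the highest hepatocyte score (12.8 and 12.6). The untreated table carries a constant that splits pre_Liver into replicates 1 to 3, which share it with the SC libraries, and replicates 4 and 5; against pre_Liver 1 to 3 alone the Abcc1 difference was −1.40 ± 0.31 (limma adjusted p = 0.0142). The same restriction gave 0.69 for Abcc3 (adjusted p = 0.0727), 5.09 for Abcc2, 7.20 for Slco1b2, 0.84 for Abcb1a (0.0363) and −0.72 for Abcb1b (0.115).

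The genes of the P-glycoprotein pair differed in opposite directions between untreated sites. Abcb1a read 1.35, 1.30 and 1.14 TPM in pre_SC and 3.10, 2.05, 4.31, 6.17 and 3.73 TPM in pre_Liver, without overlap. It was 3.07-fold higher in mean level (1.05 ± 0.27, log2, SE; limma adjusted p = 0.0188), and the call was lost without pre_SC 1, 2 or 3 (0.0568 to 0.0709). Abcb1b read 9.85, 6.35 and 8.82 TPM in pre_SC and 4.13, 7.83, 2.90, 1.60 and 1.19 TPM in pre_Liver. There pre_Liver 2 lay inside the SC range, and the difference of −1.21 ± 0.44 (limma adjusted p = 0.0483) lost its call without any 1 library other than pre_Liver 2 and under median of ratios scaling (−0.79, adjusted p = 0.0696). Its adjusted p over the alternatives ranged from 0.00536 to 0.155.

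Abcg2, the breast cancer resistance protein, had nearly the same mean at both sites. It read 17.1, 16.2 and 22.6 TPM in pre_SC and 16.2, 15.8, 19.7, 22.0 and 19.2 TPM in pre_Liver. The means were 18.7 ± 3.5 (SD, n = 3) and 18.6 ± 2.6 (SD, n = 5) TPM, and the 95% interval of the log2 difference ran from −0.43 to 0.43 (limma adjusted p = 0.99). Under median of ratios scaling the difference was 0.52 (adjusted p = 0.185), so the near equality holds on the TPM scale.

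Treated liver tumors were next set beside treated SC tumors. Abcc2 and Slco1b2 were again higher in liver. The values come from tables deposited separately for each site, and TPM is scaled within a library. Of 7 members tested 2 were called higher in liver and 0 lower, by limma, where 6.58% and 2.77% of 13950 genes were called; 4 members had an unadjusted p under 0.05. The members' median difference was −0.08, and that of all genes −0.08. Abcc2 read 17.8, 2.53, 2.22, 38.8 and 16.1 TPM in post_Liver and 0, 0 and 0.0192 TPM in post_SC. Abcc2 and Slco1b2 again passed the filter through the liver libraries alone, so their differences, calls and p-values are a description. The Abcc2 difference was 3.42 ± 0.81 (limma adjusted p = 0.0316), and 6.45 with a pseudocount of 0.1 (adjusted p = 0.003). At a pseudocount of 1 it lost its call without post_SC 1, 2 or 3 or post_Liver 1 or 5 (0.0679 to 0.126). Slco1b2 read 61.2, 7.33, 6.71, 148 and 70.8 TPM in post_Liver and was listed at 0 in all post_SC libraries (limma adjusted p = 0.0143), a call lost without post_SC 1 or 3 (0.0647 and 0.0724).

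The remaining 5 members were not called between the treated sites. Abcc1 read 19.3, 18.1 and 25.2 TPM in post_SC and 14.6, 13.4, 13.4, 7.98 and 15.7 TPM in post_Liver. These groups did not overlap, but the difference of −0.66 ± 0.25 did not pass (limma adjusted p = 0.128). Abcc3 read 30.9, 54.0 and 37.2 TPM in post_SC and 64.2, 61.2, 75.0, 48.0 and 47.2 TPM in post_Liver, with overlap (0.54 ± 0.23, limma adjusted p = 0.168). Abcg2 read 19.5, 24.3 and 19.8 TPM in post_SC and 21.2, 8.03, 7.70, 21.7 and 22.1 TPM in post_Liver. Only post_Liver 2 and 3, the libraries with the lowest hepatocyte score, were below 10 TPM for Abcg2. Abcb1a and Abcb1b differed by −0.08 ± 0.40 and −0.12 ± 0.33, and the 95% interval ran from −0.99 to 0.83 for the former and from −0.88 to 0.63 for the latter.

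**Figure D2:**
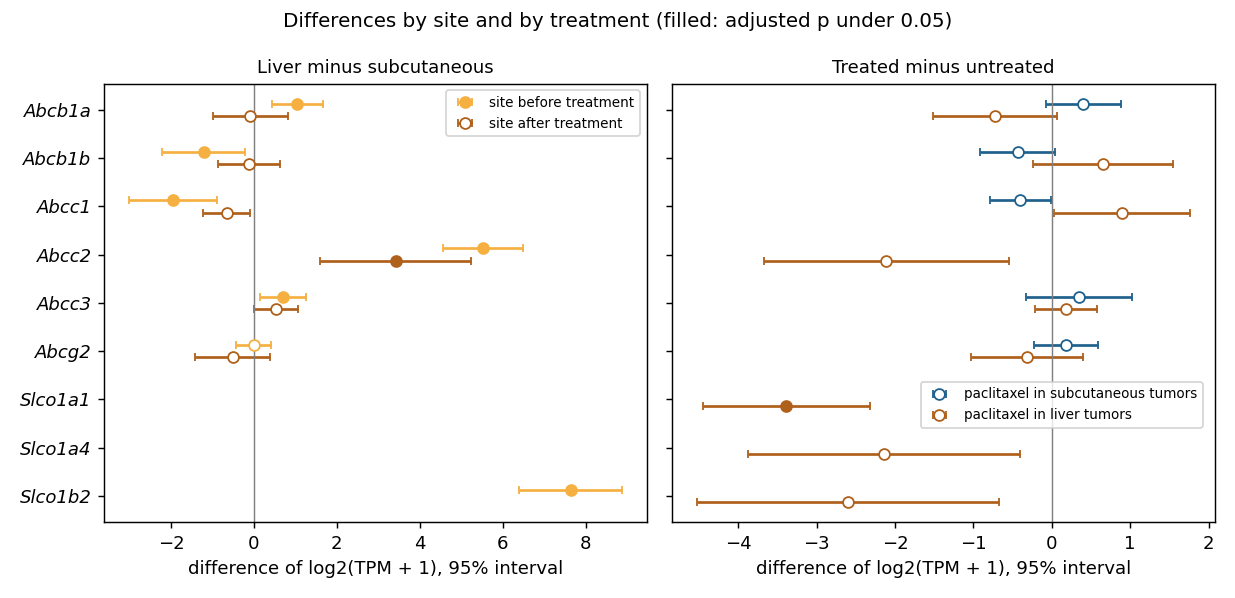
Differences of log2(TPM + 1) with 95% intervals from limma, between sites on the left and between treated and untreated tumors on the right; filled points have an adjusted p under 0.05. The site differences of Slco1a1 and Slco1a4, and that of Slco1b2 after treatment, are not drawn because the gene is listed at 0 or has no row in SC tumors. Site points of Abcc2 and Slco1b2 are a description, since both passed the filter on low values through the liver libraries alone. Slco1a1 at −3.39 is the one filled point on the right.

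Paclitaxel in SC tumors was followed by no call among the 5 members tested, by limma, where 7.03% of 13337 genes were called in either direction. One member, Abcc1, had an unadjusted p under 0.05. The members' median difference was 0.18 and that of all genes −0.03. Abcb1a read 1.95, 2.17 and 1.86 TPM in post_SC, above every pre_SC library, with a difference of 0.40 ± 0.20 (limma adjusted p = 0.24). Beside it, 5 of 7 endothelial markers were called higher, and their summed level was 259.2 to 302.7 TPM in post_SC against 103.1 to 157.9 TPM in pre_SC; their part in the Abcb1a values was not tested. Abcb1b read 5.59, 5.31 and 6.65 TPM in post_SC and overlapped with pre_SC (−0.43 ± 0.21, adjusted p = 0.217). Abcc1 differed by −0.40 ± 0.17 (adjusted p = 0.17), Abcc3 by 0.34 ± 0.29 (0.471) and Abcg2 by 0.18 ± 0.18 (0.53).

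Paclitaxel in liver tumors was followed by lower levels of Slco1a1. In the planned fit over genes of both sites, 0 of 7 members were called by limma, 3 had an unadjusted p under 0.05, and 3.26% of 13722 genes were called. The fit over all genes of the liver table, added after seeing the data, holds the 9 members and called 1 lower, Slco1a1, where 1.3% of 13838 genes were called lower. Post_Liver replicates 1 to 5 read 0.117, 0.257, 0.458, 4.76 and 0.976 TPM of Slco1a1. The highest of them stood below the lowest untreated liver library (10.2 TPM), and the means differed 15.9-fold (−3.39 ± 0.48, log2, SE, n = 5 and 5; limma adjusted p = 0.00679). The call held in 10 of 10 fits that left out 1 library (0.00696 to 0.0254), and against pre_Liver 1 to 3 alone (−3.51, adjusted p = 0.0492).

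The other hepatocyte-linked members were lower in mean level but did not pass. Slco1a4 read 12.1, 1.47, 1.04, 19.7 and 11.2 TPM in post_Liver (−2.15 ± 0.78, limma adjusted p = 0.109). Slco1b2 differed by −2.60 ± 0.87 (limma adjusted p = 0.0977) and Abcc2 by −2.11 ± 0.71 (0.098). Each overlapped with its untreated group, and in each post_Liver 2 and 3 were the lowest. With the replicate number as a block, and all libraries kept, the 3 were called by limma (adjusted p = 0.0278 for Slco1a4, 0.0297 for Slco1b2 and 0.028 for Abcc2). No label tells whether the numbers pair the libraries. Leaving out 1 library also made calls. Without pre_Liver 2 the limma adjusted p was 0.03 for Slco1a4, 0.0353 for Slco1b2 and 0.0388 for Abcc2. Without post_Liver 4 it was 0.0423 for Slco1b2 and 0.0396 for Abcc2. Calls over all genes rose in these fits too. With the block they were 2265 higher and 924 lower of 13722, or 2255 and 1008 of 13838 in the fit that holds Slco1a4. They rose to 3204 higher and 958 lower of 13715 without pre_Liver 2. They rose to 1189 and 780 of 13723 without post_Liver 4. The fit that holds Slco1a4 called 3227 and 1043 of 13832 genes without pre_Liver 2. Against pre_Liver 1 to 3 alone the differences were −1.52, −2.16 and −1.68, with adjusted p of 0.536, 0.489 and 0.497.

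With the hepatocyte score as a covariate, Slco1a1 still differed by −2.69 ± 0.51 (limma adjusted p = 0.0294). That call held in 3 of 10 fits that left out 1 library, was lost without pre_Liver 1 or 3 or without any 1 post_Liver library, and the adjusted p reached 0.162 without post_Liver 4. The covariate left −0.34 for Slco1a4, −0.47 for Slco1b2 and −0.37 for Abcc2. Libraries of like score can be read side by side. Pre_Liver 2 (10.9) and post_Liver 1 and 5 (both 10.8) read 62.4, 61.2 and 70.8 TPM of Slco1b2 and 19.4, 17.8 and 16.1 TPM of Abcc2, 6.48, 12.1 and 11.2 TPM of Slco1a4, and 10.2, 0.117 and 0.976 TPM of Slco1a1. Pre_Liver 3 and post_Liver 4 (both 12.3) read 353 and 148 TPM of Slco1b2, 58.1 and 38.8 TPM of Abcc2, 40.9 and 19.7 TPM of Slco1a4, and 41.4 and 4.76 TPM of Slco1a1. Slco1a1 was thus lower in the treated library at each of these scores, while the other 3 were lower at the higher score and, at the lower one, close (Slco1b2, Abcc2) or higher (Slco1a4). Per 1000 TPM of Alb, the serum albumin transcript of hepatocytes, Slco1a1 had a median of 0.841 before and 0.219 after treatment with overlapping ranges (0.233 to 1.5 and 0.0109 to 0.625), and Slco1b2 had medians of 6.55 and 6.82. Over the 10 liver libraries Pearson's r with the hepatocyte score was 0.985 for Slco1b2, 0.991 for Abcc2, 0.952 for Slco1a4 and 0.753 for Slco1a1, a description of libraries that share their scaling and fall in separate groups.

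**Figure D3:**
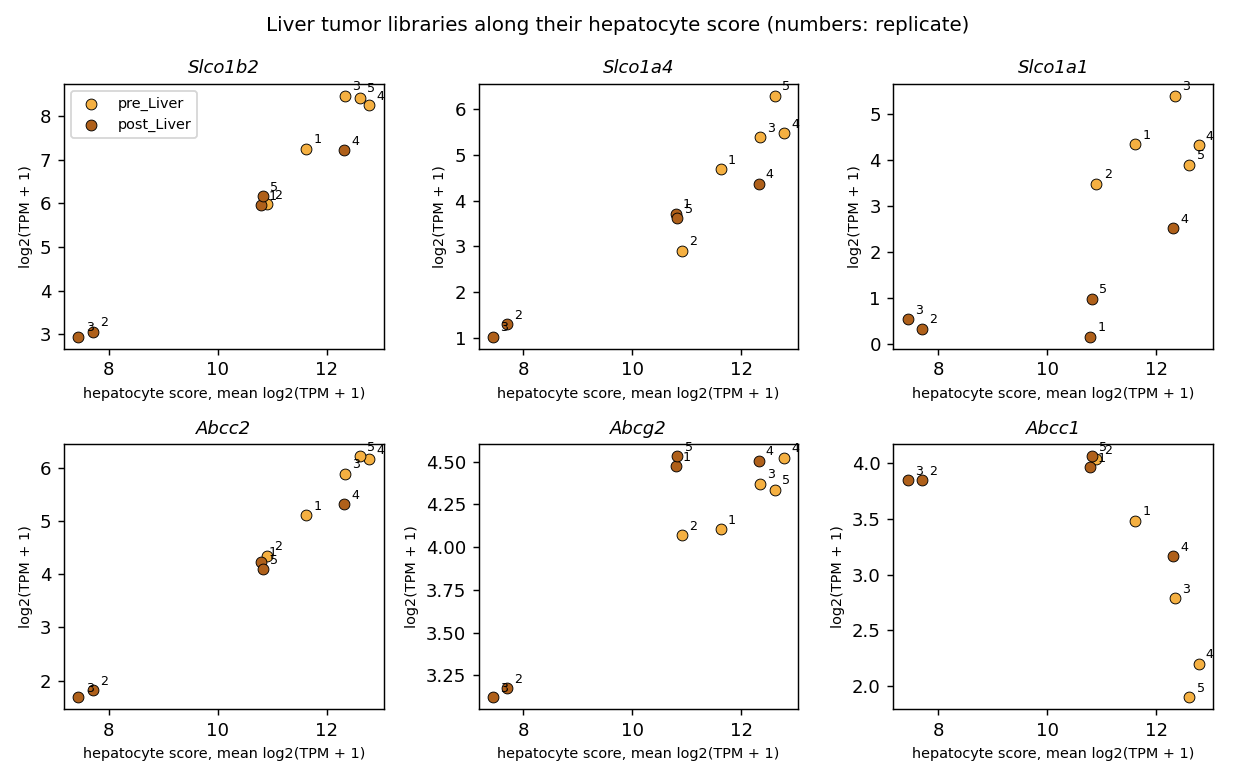
Level of 6 transporters as log2(TPM + 1) against the hepatocyte score in the 10 liver tumor libraries, with the replicate number beside each point. Slco1b2, Slco1a4 and Abcc2 are higher at higher scores, with post_Liver 4 below pre_Liver 3 at a like score, Slco1a1 in post_Liver lies below pre_Liver at like scores, and Abcc1 is lowest in pre_Liver 4 and 5.

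The remaining members, Abcc1, Abcb1b, Abcb1a, Abcg2 and Abcc3, were not called in the liver response. Abcc1 differed by 0.90 ± 0.39 (limma adjusted p = 0.148), with overlap, and by 0.34 against pre_Liver 1 to 3 alone. It was called without pre_Liver 2 (adjusted p = 0.0326), where 3204 genes were called higher and 958 lower of 13715. Its r was 0.958 with the score of carcinoma epithelium markers and −0.66 with that of hepatocytes. Abcb1b read 7.99, 3.63, 2.79, 5.95 and 7.81 TPM in post_Liver (0.65 ± 0.40, adjusted p = 0.249), and Abcb1a read 2.56, 0.641, 0.770, 2.32 and 4.27 TPM (−0.73 ± 0.36, adjusted p = 0.175). Abcb1a had an r of 0.884 with the hepatocyte score and 0.857 with the endothelial score, and its difference was −0.04 with the covariate. Abcg2 differed by −0.32 ± 0.32 (adjusted p = 0.448), and by 0.40 with the covariate; its r was 0.956 with the endothelial score and 0.904 with the hepatocyte score. Abcc3 differed by 0.19 ± 0.18 (adjusted p = 0.429), and by −0.23 under median of ratios scaling, where the median of all genes was 0.03 in place of 0.40. All 6 neutrophil markers were called higher after treatment in liver tumors, from a summed 133.7 to 988.3 TPM to 2021 to 15610 TPM, and 4 of 6 mast cell markers were called higher as well (11.2 to 23.97 TPM to 47.57 to 117.8 TPM); their part in these values was not tested.

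The responses at the sites were then compared directly, in a fit of all 4 groups. Of 7 members 0 were called by limma, where 3.01% of 13869 genes were called, and 4 had an unadjusted p under 0.05. Liver minus SC responses were −1.13 ± 0.49 for Abcb1a, 1.30 ± 0.55 for Abcc1, −2.10 ± 0.98 for Abcc2 and −2.57 ± 1.20 for Slco1b2, with limma adjusted p from 0.166 to 0.197. Abcc1 was called without pre_Liver 2 (1.58, adjusted p = 0.0304), where 2089 genes were called higher and 588 lower of 13875. Abcb1b gave 1.08 ± 0.57, Abcg2 −0.50 ± 0.46 and Abcc3 −0.16 ± 0.34. Slco1a1 and Slco1a4 could not be compared in this way, because they have no row for post_SC.

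The balance within the P-glycoprotein pair varied most among untreated liver libraries. The share of Abcb1a in the summed TPM of Abcb1a and Abcb1b was 12.1%, 17.0% and 11.4% in pre_SC and 42.9%, 20.8%, 59.8%, 79.4% and 75.8% in pre_Liver. It was 25.9%, 29.0% and 21.8% in post_SC and 24.3%, 15.0%, 21.6%, 28.1% and 35.4% in post_Liver. In means, it stood at 13.5% ± 3.1 (SD, n = 3), 55.7% ± 24.3 (SD, n = 5), 25.6% ± 3.6 (SD, n = 3) and 24.9% ± 7.6 (SD, n = 5). The untreated sites did not overlap, and 4 of 5 untreated liver libraries were above every treated one. Within pre_Liver the share was lowest in replicate 2, which had the lowest hepatocyte score (10.9). It was highest in replicates 4 and 5, which had the highest scores (12.8 and 12.6) and form the other batch. In post_Liver the highest share was in replicate 5 (score 10.8) and not in replicate 4 (12.3). The part of hepatocyte content and batch in the share was not tested. Exact two-sided permutation tests gave p = 0.0357 for the untreated sites (n = 3 and 5, adjusted over 4 comparisons 0.0794) and p = 0.0397 for treatment in liver (n = 5 and 5, adjusted 0.0794). The exact permutation p was 0.857 for the treated sites and 0.1 for treatment in SC tumors (adjusted 0.133), where 0.1 is the smallest p that 3 against 3 can give. The 0.0357 of the untreated sites is likewise the smallest p of this test for 3 against 5, while 5 against 5 can give 0.00794. None of the 4 comparisons passed after adjustment.

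**Figure D4:**
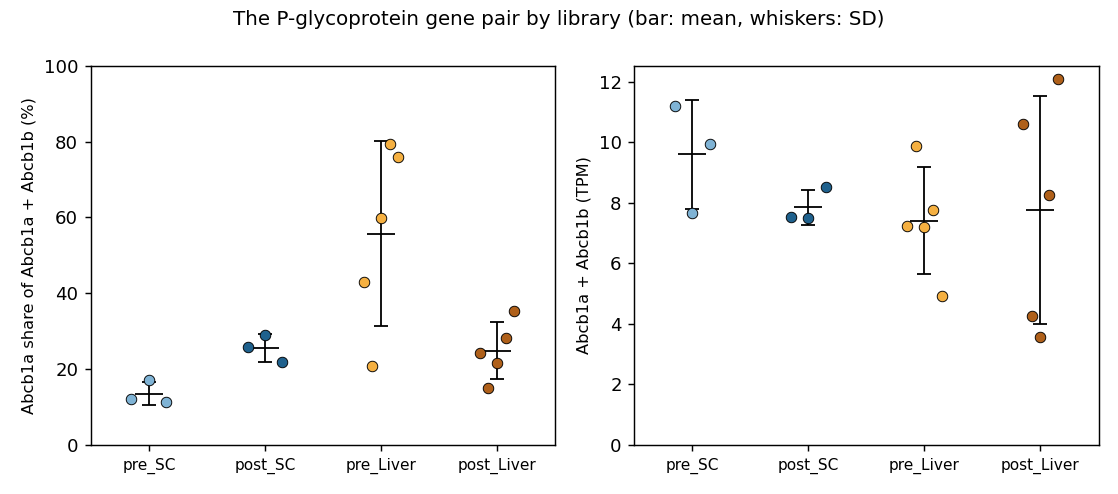
Left, the Abcb1a share (percent) of the summed TPM of Abcb1a and Abcb1b in each library, and right, the sum itself in TPM, by group with mean and SD. Untreated liver libraries run from 20.8% to 79.4%, and the other groups stay between 11.4% and 35.4%.

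Ranked by mean level within a group, Abcc3 was the highest member in pre_SC, post_SC and post_Liver (32.2, 40.7 and 59.1 TPM), although Slco1b2 was level with it in post_Liver (58.9 ± 58.2 TPM, range 6.71 to 148), and Slco1b2 was highest in pre_Liver (242 TPM), followed there by Abcc3 (51.6 TPM) and Abcc2 (51.0 ± 23.7 TPM), whose ranges overlap. In SC tumors the exporters came in the order Abcc3, Abcc1, Abcg2, Abcb1b and Abcb1a before treatment, and Abcc3, Abcg2, Abcc1, Abcb1b and Abcb1a after it. Abcc1 and Abcg2 overlapped after treatment, so their exchange is within the spread. Abcb1a and Abcb1b had the lowest means of the 6 exporters in liver tumors, with 3.87 ± 1.53 and 3.53 ± 2.67 TPM (SD, n = 5) before treatment and 2.11 ± 1.49 and 5.63 ± 2.37 TPM after it. Their ranges overlapped in pre_Liver and in post_Liver, and did not overlap in pre_SC or post_SC.

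Other transporters and drug-metabolism genes were read from lists chosen for the pathway, with earlier results of these data known. In SC tumors alone, only 5 listed exporters, 5 carriers and 4 oxidation or regulator genes passed the filter on low values. Genes such as Cyp3a11 (at most 0.041 TPM in pre_SC) and Hnf4a (0) passed it through the liver libraries alone, so they had to differ. The counts between sites, before and after treatment, are thus a description, and log2 sizes against a group near 0 are set by the pseudocount. Of 10 other ABC exporters tested between untreated sites, where 14.8% of all genes were called higher and 33.4% lower, 5 were called higher in liver, among them the bile exporters Abcb4 (5.78 ± 0.28) and Abcb11 (6.32 ± 0.60) and the sterol exporter Abcg5 (5.25 ± 0.52), all log2(TPM + 1) differences by limma. Of 6 other uptake carriers tested, 4 were higher, including the bile acid carrier Slc10a1 (6.78 ± 0.64), and 2 were lower, including Slco4a1 (−1.94 ± 0.41). Of 14 genes of paclitaxel oxidation and its regulators, 12 were higher, including the oxidase gene Cyp3a11 (9.01 ± 0.60) and the liver regulator Hnf4a (7.12 ± 0.46), and 1, the regulator Ahr, was lower (−1.31 ± 0.19). Single libraries decided a few of these calls: Slco3a1 held in 1, Rxra in 2 and Slco2a1 in 7 of 8 fits that left out 1 library. After treatment, where 6.58% of all genes were called higher and 2.77% lower, the counts were 3 of 10 exporters, 1 of 6 carriers and 7 of 14 oxidation genes higher in liver, and 1 oxidation gene, again Ahr, lower (−0.86 ± 0.20). Ahr was named after its values were seen, and its call after treatment was lost without post_SC 1, 2 or 3 or post_Liver 1, 2 or 5 (up to 0.146). Of those higher after treatment, Abcb11, Nr1h4 and Cyp2c29 held in 3, 3 and 2 of 8 such fits and were lost under median of ratios scaling (adjusted p = 0.0596, 0.052 and 0.0567), and Abcc6, Hnf4a and Nr1i3 held in 5, 6 and 6 of 8. Genes named here for how their calls held were chosen after their values were seen.

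After paclitaxel the counts on these lists were small, and few genes were tested in SC tumors, where 7.03% of all genes were called, against 3.26% in liver tumors and 3.01% for the difference of responses. In SC tumors Abcc4, an exporter of cyclic nucleotides and prostaglandins, was 1 of 5 exporters tested and rose by 1.40 ± 0.21 (log2, limma adjusted p = 0.0168), a call lost without pre_SC 1 or 3 or post_SC 1 (up to 0.0737). The bile acid receptor gene Nr1h4 was 1 of 4 oxidation and regulator genes tested and rose by 1.85 ± 0.26 (limma adjusted p = 0.0152), a call lost without pre_SC 1, 2 or 3 (up to 0.0625). In liver tumors 0 of 10 exporters were called. Slco4a1, a thyroid hormone carrier, was 1 of 6 carriers and rose by 1.39 ± 0.30 (adjusted p = 0.0343), and the cytochrome gene Cyp2c37 was 1 of 14 and differed by −4.52 ± 1.07 (adjusted p = 0.0491). The Slco4a1 call held in 3 of 10 fits that left out 1 library (up to 0.108) and was lost under median of ratios scaling (1.15, 0.0516). That of Cyp2c37 held in 2 of 10 (up to 0.136) and was lost under that scaling as well (−4.86, 0.0699). The responses differed between sites for Slco4a1 (2.14 ± 0.48, adjusted p = 0.0306) and Nr1h4 (−3.51 ± 0.66, adjusted p = 0.0135), calls that held in 9 and 15 of 16 fits that left out 1 library, Nr1h4 failing without pre_SC 3 (0.0512).

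The genes whose pattern over the 10 liver libraries was most like each member were ranked by Pearson's r of log2(TPM + 1), as a description. Slco1b2 was closest to Slc10a1 (0.998), Dpys (0.998) and Agtr1a (0.997), and Abcc2 to Gc (0.999) and Apoh (0.998), genes of hepatocyte plasma proteins. Slco1a4 was closest to Akr1c20, Hpgd and Pgm2 (0.99, 0.99 and 0.989). Slco1a1 was closest to Crybb3, Fpgs and Mug2 (0.989, 0.983 and 0.977). Abcc1 was closest to Fam129b and Kirrel (0.998 and 0.995), and Abcb1b to Lmcd1, Axl and Anxa7 (0.981, 0.967 and 0.965). Abcg2 was closest to Cyp7b1, Lrp1 and the endothelial cadherin gene Cdh5 (0.987, 0.984 and 0.98), Abcb1a to Dock4, Npc1 and Arhgap29 (0.963, 0.957 and 0.955), and Abcc3 to Phb2, Hs3st6 and Ifrd2 (0.953, 0.884 and 0.88). These libraries share their scaling and their uneven host content.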

How the data were processed

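Poly(A) RNA of 16 libraries was sequenced, and fastp, StringTie and the build GRCm38/mm10 are named in the submitters' processing notes without roles or versions. The authors deposited the 10 liver libraries as FPKM, read from the column sums (511645 to 547765), and the 6 SC libraries as TPM, since each column sums to 1000000. Their table of untreated libraries holds a score, deposited by the authors, that equals TPM plus or minus a constant per gene and batch; it was used with the constant removed and, as an alternative, as deposited. No source states these units. FPKM was rescaled to TPM over the genes of the liver table. Depth is unknown from these values.

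Genes in both site tables with mean TPM of at least 1 over a fit's libraries were tested on log2(TPM + 1), where fold changes of low genes are understated, with limma 3.58.1 in R 4.3.3 (trend), Benjamini-Hochberg adjustment and a threshold of 0.05. Tables were made in Python 3.11.15 with pandas 2.3.3, NumPy 2.4.6 and SciPy 1.17.1, and plots with matplotlib 3.10.9. The fits were tested on simulated data. All 9 members are named. Of the pathway lists, at most 4 called genes per comparison could be named, in order of p, and the likeness lists name 3 genes with mean TPM of at least 5; some genes these rules pick are not reported here. Members and lists were chosen with earlier results of these data known. Alternatives were the pseudocount (0.1), the filter, the scaling, a replicate block, a hepatocyte covariate, restriction to 1 batch and leaving out each library.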

Additional observations from a re-analysis of the deposited data

Results flagged for a closer look

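The Slco1a1 level in post_Liver 4 stood apart from the other treated liver libraries, at 4.76 TPM, with a gap to the nearest of 0.815 of the group's range by Dixon's criterion. That library also had the highest hepatocyte score of its group (12.3). Its value was still below the 10.2 TPM of the lowest untreated liver library. Of 20 groups of 5 libraries tested for such a value, chance would mark about 1 in 20.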

How the results depend on the processing

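No reversed value passed the threshold: the 16 reversed values of single members had adjusted p of 0.185 to 0.974. The Abcb1a difference after treatment between sites became 0.12 and 0.09 without post_Liver 2 and 3 and 0.10 with these averaged, and that of Abcb1b 0.057 without post_Liver 3 and 0.023 with both averaged; leaving out 1 library gave −0.31 to 0.12 and −0.25 to 0.057. The Abcc3 difference of responses became 0.13 without pre_SC 3 and 0.06 without post_SC 2 (−0.33 to 0.13 with 1 library left out), and its liver response −0.23 under median of ratios scaling and −0.032 with the hepatocyte covariate. Abcg2 became 0.40 in the liver response with the covariate, and between untreated sites 0.52 under median of ratios scaling, 0.011 with TPM over shared genes, 0.14 without pre_SC 3, and 0.042 and 0.049 without pre_Liver 1 and 2 (−0.091 to 0.14 with 1 library left out). Slco1a4 in the liver response became 0.073 without post_Liver 4 and with the covariate, and was lowest at −2.66 without pre_Liver 2. The Abcb1a share differed between treated sites by −0.708 percentage points, by 1.02 without post_SC 2, by 1.76 and 0.0997 without post_Liver 2 and 3, and by 0.853 with these averaged; leaving out 1 library gave −3.33 to 1.76.

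The number of members called between untreated sites (6) was 2 to 6 with 1 library left out, 2 without pre_SC 1 or 3 and 3 without pre_SC 2. Between treated sites (2) it was 0 to 2, and for the difference of responses (0) 0 to 1. In liver tumors (0) it was 0 to 3, with 3 without pre_Liver 2 and 2 without post_Liver 4. Calls over all genes moved as well. Between untreated sites they were 1323 higher and 800 lower of 13607 without pre_SC 1, in place of 2011 and 4557. In liver tumors they were 3204 and 958 of 13715 without pre_Liver 2, in place of 313 and 135. Without post_Liver 4 they were 1189 and 780 of 13723. Over all genes of the liver table the number of members called was 1, because Slco1a1 has a row there. With the replicate number as a block, the members called were 3, 1 and 2 for the untreated sites, treated sites and liver response. They were 0 for the others, and 4 over all genes of the liver table (Slco1a1, Slco1a4, Slco1b2 and Abcc2). Calls over all genes moved with the block as well. These were 1704 higher and 1975 lower of 13710 for untreated sites, and 661 and 295 of 13851 for treated sites. In these site fits the block kept liver replicates 1 to 3 only, so they also had fewer libraries. Against pre_Liver 1 to 3 with no block, calls were 1924 higher and 2794 lower of 13710, and 4 members were called. In the liver response calls over all genes rose with the block to 2265 and 924 of 13722. Over all genes of the liver table they were 2255 and 1008 of 13838. The added member calls in liver tumors thus came with a rise over all genes. No label tells whether replicate numbers pair the libraries. Same-numbered libraries correlated from −0.153 to 0.131 in SC tumors and from −0.124 to 0.738 in liver tumors. In SC tumors 1 of 3, and in liver tumors 2 of 5, were closest to their own number. So few libraries, with uneven hepatocyte content, cannot decide whether the numbers are pairs. In all, 570 of 639 values of single members kept direction and call. Many of these were of members not called in the main fit, where keeping the call meant staying uncalled. Between untreated sites, Abcb1b and Abcc3 each lost their call in 7 fits that left out 1 library and kept it in 1. The cause of such moves was not tested. Depth limits cannot be given, since no counts were used here.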
